A study of Mus musculus with 12 samples.

Results

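A set of 10 genes of sphingolipid breakdown and ceramide metabolism were followed through 4 groups of mouse primary hepatocytes. They were chosen by symbol, as Smpdl3b and related enzymes, namely Smpdl3b, Smpdl3a, Smpd1, Smpd2, Smpd3, Asah1, Asah2, Cers2, Sphk1 and Sphk2, and all 10 were found among the 55450 gene identifiers of the deposited tables, each under 1 identifier. The groups were Cebpafl/fl hepatocytes with floxed Cebpa (WT), Cebpa{delta}Alb hepatocytes with an albumin-driven Cre that deletes Cebpa in hepatocytes (KO), hepatocytes given Ad-GFP, an adenovirus for green fluorescent protein (GFP), and hepatocytes given Ad-m-Cebpa, an adenovirus for mouse Cebpa (OE), with 3 libraries in each. Both floxed groups carry the floxed alleles and both virus groups carry an adenovirus, and the labels give neither the age of the mice nor the length of the virus treatment. The replicates are called biological in the labels, but whether a separate mouse or culture stands behind each is not given, so p values measure the spread between these libraries.

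CEBPA is a transcription factor of mature hepatocytes. Sphingomyelinases cut sphingomyelin into ceramide and phosphocholine, ceramidases cut ceramide into sphingosine and a fatty acid, and sphingosine kinases turn sphingosine into the signalling lipid sphingosine 1-phosphate. Ceramide synthases run the other way and attach a fatty acid to a sphingoid base. Each step is shared by enzymes that sit in different places of the cell, such as the lysosome, the plasma membrane or the cytosol, and the liver is known for ceramides with very long acyl chains, which CERS2 makes. SMPDL3A and SMPDL3B resemble acid sphingomyelinase in sequence but act mainly on other substrates.

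Each library held 20160081 to 23304230 expected counts. Cebpa was at 229.3 to 308.8 CPM (counts per 1000000 counts, scaled by TMM within the 6 libraries of an experiment) in WT and 0.164 to 0.963 in KO, and at 47.95 to 54.3 in GFP and 13290 to 14080 in OE, where RNA from the virus and from the cell's own gene cannot be told apart. Summed over 10 hepatocyte markers, TPM (transcripts per 1000000, a level per gene length) lay between 79100 and 83900 for WT, between 88400 and 102000 for KO, between 19400 and 19900 for GFP and between 10700 and 10900 for OE. Alb made up most of each sum. Of the 10 markers, 0 were called higher and 1 lower in KO against WT, with a median log2 fold change of -0.04. In OE against GFP 1 was called higher and 9 lower. Cyp2e1 was at 4569 to 6063 TPM in WT and at 15.55 to 16.54 in GFP, so the virus groups held little RNA of this marker. The other markers differed less between WT and GFP. Tat was at 985.7 to 1756 TPM in WT and 31.4 to 37.46 in GFP. Cyp3a11 was at 524.5 to 829.7 and 411.8 to 448.9, and Hnf4a at 197.7 to 273.4 and 181.9 to 185.8. The spread between replicates, as the biological coefficient of variation, was 20.4% in WT and KO and 4.04% in GFP and OE.

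Smpdl3b was the member that rose in KO. It encodes a phosphodiesterase held at the outer face of the plasma membrane by a lipid anchor, known from macrophages and kidney podocytes. The gene (ENSMUSG00000028885.8) lies on the minus strand of chromosome 4 from 132732966 to 132757252 (mm10, GENCODE M21), with 1 annotated transcript. Its upstream stretch is shown because it was the single member called in KO. RefSeq windows from 250 bases before to 50 after a gene's start held 7 of the 10 members in 13 windows, on GRCm38.p6, and Asah1, Smpd3 and Smpdl3a had no window. Below, the part of the Smpdl3b window that lies before both annotated starts is given 5′ to 3′ on the gene's strand (chr4:132757253-132757421, 169 bases), with capitals for TTGC and GCAA, the half-sites of the C/EBP motif TTGCNNAA.
Smpdl3b upstream: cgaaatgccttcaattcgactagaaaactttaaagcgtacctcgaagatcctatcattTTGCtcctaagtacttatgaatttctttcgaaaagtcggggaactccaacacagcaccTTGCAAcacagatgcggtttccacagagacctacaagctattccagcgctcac
The half-site TTGC occurred 2 times and GCAA 1 time, overlapping in TTGCAA, and 84.7% of all 32851 windows held either. The whole motif TTGCNNAA (or TTNNGCAA, its reverse complement) was not in this window on either strand, nor was the palindrome TTGCGCAA. Of the 13 member windows 1 held TTGCNNAA, an inner start of Cers2 on chromosome 3 (95318580 to 95318879), with matches that begin at -95 and 7 from the start, whereas 10.8% of all windows held it. The palindrome was in 0.183% of all windows. These matches are letters and were not measured as bound sites.

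In KO against WT, which asks what loss of hepatocyte Cebpa changes, Smpdl3b rose 17.6-fold and none of the other 8 members tested was called, in edgeR or in DESeq2 (1 of the 8, Sphk2, was at an unadjusted p under 0.05 in edgeR). Smpdl3b had 10, 5 and 4 counts in the WT libraries and 136, 75 and 112 in the KO libraries. Its level was 0.458, 0.215 and 0.171 CPM in WT and 6.55, 3.86 and 4.598 in KO, and the lowest KO library stood above the highest WT library by more than the range within either group. The log2 fold change was 4.14 ± 0.40 (SE; 95% interval 3.20 to 5.08; adjusted p = 0.00557, edgeR quasi-likelihood test with Benjamini-Hochberg adjustment over 11846 genes). It ranked 16 by fold among the 82 genes called higher. For scale, 0.692% of all genes tested were called higher in this comparison and 1.02% lower, against 1 and 0 of the 9 members tested.

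The WT level of Smpdl3b rests on few counts, and the fold is correspondingly loose. Stated per length, the gene went from 0.21 ± 0.12 TPM (SD, n = 3) to 3.64 ± 1.04, so it stayed a gene of low level in KO. Where only genes with a mean of at least 5 CPM were kept, it was not tested. With log2(TPM + 1) in limma, which damps low values, its log2 fold change was 1.92.

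Markers of other cells were read beside this rise, as Smpdl3b is also a macrophage gene. The summed TPM of 12 macrophage markers was 3.58, 5.76 and 24 in the WT libraries and 39.6, 42.7 and 14.2 in the KO libraries, so the groups overlapped, with WT3 above KO3. Smpdl3b had 4 counts in WT3 and 112 in KO3. Without KO1 or without KO2 Smpdl3b was still called. Each of these fits kept the other KO library with a high marker sum, so they cannot show the part of macrophages. Over all alternatives in which Smpdl3b was tested its adjusted p was at most 0.046. Of the 10 macrophage markers tested in KO against WT none was called, although 3 were at an unadjusted p under 0.05. Their median log2 fold change was 1.62. Summed TPM of 10 inflammatory genes was 304, 493 and 2680 in WT and 8910, 13400 and 517 in KO, high in KO1, KO2 and to a lesser degree WT3. Stellate cell markers summed to 2.27 to 5.02 TPM in WT and 5.76 to 8.83 in KO, mostly from Reln and Dcn, with no overlap. Of 5 tested, 1 (Reln) was called higher in KO and 3 were at an unadjusted p under 0.05, with a median log2 fold change of 1.34. Summed TPM of endothelial markers overlapped at 7.7 to 14.6 and 9.7 to 20.5. Of 8 endothelial markers tested none was called and 1 was at an unadjusted p under 0.05, with a median log2 fold change of 0.72. Bile duct markers summed to at most 1.52 TPM. The part of other cells and of inflammatory genes in the values of Smpdl3b and the other members was not tested, and in bulk RNA fewer cells of a type and less RNA per cell cannot be told apart.

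The other members tested were not called in KO, and how closely their change was fixed differed between them. Sphk2, the sphingosine kinase of nucleus and mitochondria (ENSMUSG00000057342.15, chromosome 7, 45709467 to 45718002), was at 46.8, 45.3 and 35.1 CPM in WT and 33.0, 24.1 and 35.9 in KO. These ranges overlapped, the log2 difference was -0.45 ± 0.18 (95% interval -0.87 to -0.03) and the adjusted p was 0.332 in edgeR. Smpd3, neutral sphingomyelinase of the plasma membrane and Golgi, was low and scattered, with 22, 43 and 16 counts in WT and 14, 71 and 57 in KO (log2 difference 0.91 ± 0.62, 95% interval -0.56 to 2.37), so its change was not determined. For Smpd1, the acid sphingomyelinase of the lysosome, the log2 difference was 0.31 ± 0.15, and for Smpdl3a, a secreted relative of Smpdl3b that acts on nucleotides, it was 0.23 ± 0.13. Both intervals reached from just below 0 to 0.65 and 0.54.

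For the other 4 members tested the log2 difference was 0.14 ± 0.10 for Asah1, the lysosomal acid ceramidase, and -0.02 ± 0.13 for Asah2, the neutral ceramidase of the cell surface. It was -0.18 ± 0.10 for Cers2 and 0.13 ± 0.14 for Smpd2, a neutral sphingomyelinase of internal membranes. Their 95% intervals stayed between -0.41 and 0.44, so a change past 2-fold lay outside them. The CPM ranges of WT and KO did not overlap for 3 of the 9 members tested (Smpdl3b, Asah1 and Cers2), against 20.0% of all genes tested. The median log2 fold change over the 9 was 0.14, against 0.007 over all genes.

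Sphk1, the inducible sphingosine kinase of the cytosol (ENSMUSG00000061878.15, chromosome 11, 116530925 to 116536674), was at or near 0 in both groups. It had 0, 0 and 1 counts in WT and 1, 0 and 0 in KO and did not pass the filter on low counts. A count of 0 allows up to 0.123 to 0.154 CPM in these libraries, counting error only. The plot of levels shows these 10 genes in each library.

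**Figure D1:**
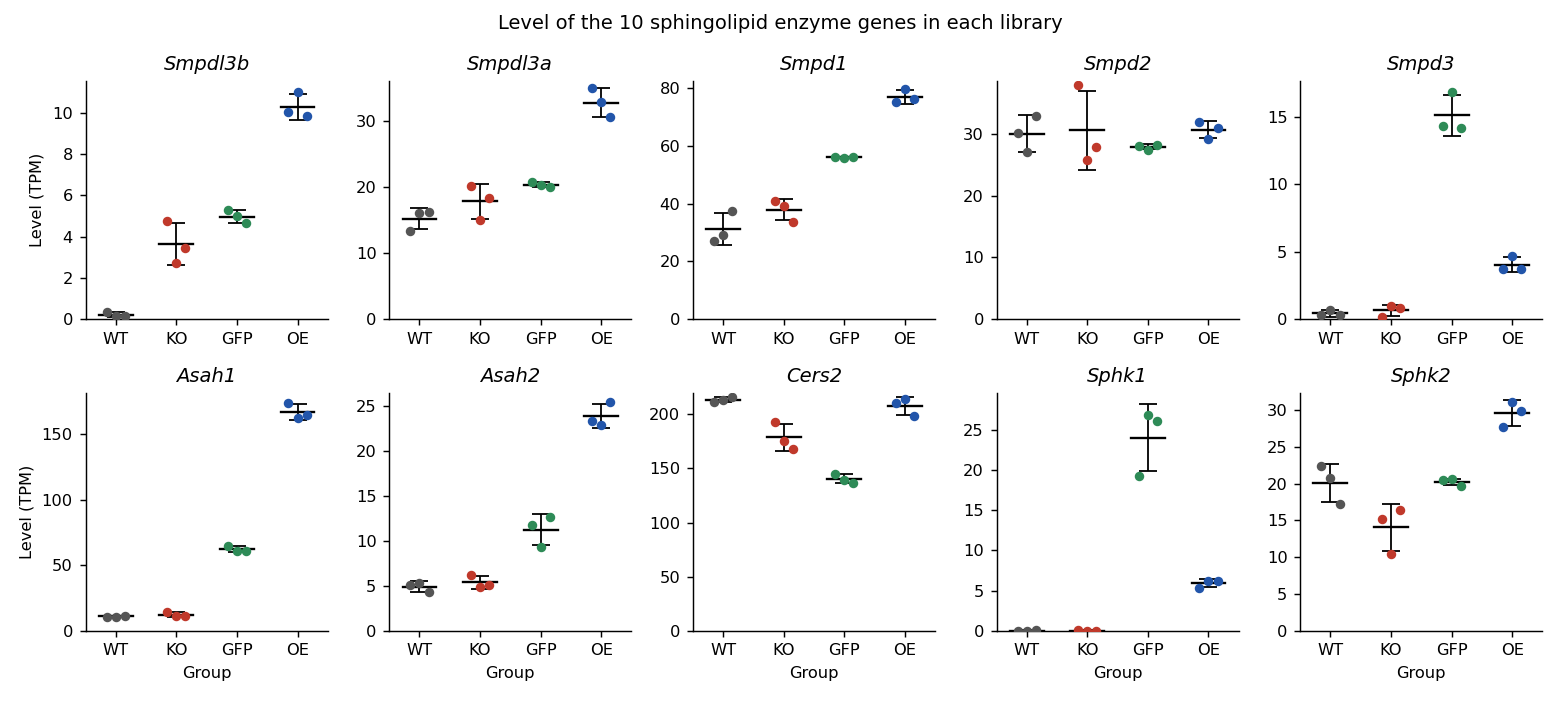
Level in TPM (vertical axes, linear from 0, each panel with its own range) of the 10 genes by group (horizontal); each point is 1 library, the long bar the mean and the error bar the SD of 3 libraries. Smpdl3b stood at 0.13 to 0.35 TPM in WT and 2.72 to 4.76 in KO, and Sphk1 at 0 to 0.05 in WT and KO and 19.22 to 26.81 in GFP.

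In OE against GFP, which asks what excess Cebpa changes, 7 members rose and 3 fell, so all 10 were called. In this comparison 43.9% of all 14889 genes tested were called higher and 42.7% lower, so a call by itself says little about a member and the sizes carry the description. The largest changes were falls of Smpd3 and Sphk1, followed by rises of the ceramidases Asah1 and Asah2. The median log2 fold change over the 10 was 0.29, against 0.005 over all genes.

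Smpd3 fell 5.39-fold. Its level was 35.98, 37.79 and 35.79 CPM in GFP and 6.15, 8.04 and 6.16 in OE, with no overlap (log2 fold change -2.43 ± 0.09, adjusted p = 2e-12, edgeR). The gene (ENSMUSG00000031906.9) lies on the minus strand of chromosome 8 from 106252548 to 106337988. It shares 247 exon bases with Prmt7 on the other strand, 4.72% of its exon length.

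Sphk1 fell 4.84-fold. Its level was 18.78, 24.39 and 21.11 CPM in GFP and 4.29, 4.40 and 4.61 in OE (log2 fold change -2.27 ± 0.11, adjusted p = 4.91e-11, edgeR). The other kinase, Sphk2, was at 40.3, 39.6 and 39.5 CPM in GFP and 45.7, 50.1 and 47.8 in OE. That small rise (log2 fold change 0.26 ± 0.05, adjusted p = 0.00011) did not pass in a fit of all 12 libraries (adjusted p = 0.102). Sphk2 shares 539 exon bases with Dbp and 373 with Rpl18 on the other strand, and the strand setting of the counting is not given in the sources used here.

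Both ceramidases rose. Asah1 went from 99.88, 100.7 and 95.6 CPM in GFP to 230.4, 221.8 and 213.2 in OE, 2.25-fold higher (log2 fold change 1.17 ± 0.03, adjusted p = 2.62e-13, edgeR). Asah2 went from 28.97, 31.16 and 31.68 CPM to 60.99, 59.84 and 62.22, 1.99-fold higher (log2 fold change 1.00 ± 0.05, adjusted p = 5.11e-11). In both genes every OE library lay above every GFP library. Asah1 (ENSMUSG00000031591.14) lies on chromosome 8 from 41340197 to 41374773 and Asah2 (ENSMUSG00000024887.10) on chromosome 19 from 31982597 to 32108211.

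Smpdl3b rose in OE as well as in KO. Its level was 6.61, 6.16 and 5.75 CPM in GFP and 10.07, 10.96 and 9.63 in OE, 1.66-fold higher (log2 fold change 0.73 ± 0.10, adjusted p = 8.61e-06, edgeR). Of the 82 genes called higher in KO, 74 were tested in OE against GFP, and of these 24 (32.4%) were higher in OE and 43 (58.1%) lower. Beside this rise, the summed TPM of the 12 macrophage markers, 174 to 198 in GFP and 189 to 209 in OE, was nearly all Cd68, a lysosomal protein gene, and the other 11 summed to 1.07 to 1.67 in GFP and 3.86 to 4.66 in OE. Adgre1, Clec4f, Marco and Timd4 were listed at 0 in all GFP libraries. Summed TPM of 6 neutrophil markers was 0.02 to 0.1 in GFP and 3070 to 3560 in OE, from S100a8 and S100a9, while Ly6g was listed at 0 in all 12 libraries. Stellate cell markers summed to 3.02 to 4.21 TPM in GFP and 17.5 to 18.6 in OE, mostly from Reln and Dcn, and of 4 tested 2 were called higher. Endothelial markers summed to 20.4 to 21.9 TPM in GFP and 25.1 to 28.5 in OE. Of 7 endothelial markers tested, however, 1 was called higher and 3 lower in OE, with a median log2 fold change of -0.18. Lymphocyte markers summed to under 1 TPM. The sum of 6 bile duct markers overlapped, yet 1 was called higher and 3 lower in OE, with Krt19 at 2.77 to 4.86 TPM in GFP and 0.61 to 1.13 in OE, and Epcam at 1.34 to 1.78 and 4.36 to 5.45. The part of these markers in the members' changes was not tested.

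Of the smaller changes, Smpdl3a (ENSMUSG00000019872.13, chromosome 10) rose from 24.95, 24.44 and 22.54 CPM to 33.18, 31.04 and 29.28 (log2 fold change 0.38 ± 0.06, adjusted p = 6.22e-05, edgeR). Cers2 (ENSMUSG00000015714.11, chromosome 3) rose from 175.2, 172.3 and 168.8 CPM to 217.8, 218.4 and 204.4 (log2 fold change 0.31 ± 0.03, adjusted p = 4.47e-07). Smpd1 (ENSMUSG00000037049.9, chromosome 7) rose from 86.26, 84.31 and 84.53 CPM to 92.15, 97.4 and 91.54 (log2 fold change 0.14 ± 0.03, adjusted p = 0.00152), and not in the fit of all 12 libraries (adjusted p = 0.217). In these 3 genes the groups did not overlap, yet the rise was under 1.5-fold on the CPM scale. On log2(TPM + 1) in limma the log2 fold change was larger, at 0.66 for Smpdl3a, 0.56 for Cers2 and 0.45 for Smpd1.

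The direction of Smpd2 (ENSMUSG00000019822.12, chromosome 10, 41485642 to 41490369) depends on the scale. It was at 25.64, 24.86 and 25.93 CPM in GFP and 23.73, 22.42 and 21.62 in OE (log2 fold change -0.17 ± 0.06, adjusted p = 0.0149, edgeR). On log2(TPM + 1) in limma it was higher in OE, by 0.13 (adjusted p = 0.0337). Over all genes, 50.7% of those called were higher in OE in edgeR on the CPM scale and 63.4% in limma on log2(TPM + 1). The median over all genes was 0.27 in limma rather than 0.005. These settings differ in test and filter as well as in scale. Smpd2 shares 905 exon bases, 20.3% of its exon length, with Mical1 on the other strand. Mical1 was at 14.0 TPM in GFP and 3.39 in OE, and its part in the Smpd2 count was not tested. The other 9 members kept their direction on each scale tried.

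**Figure D2:**
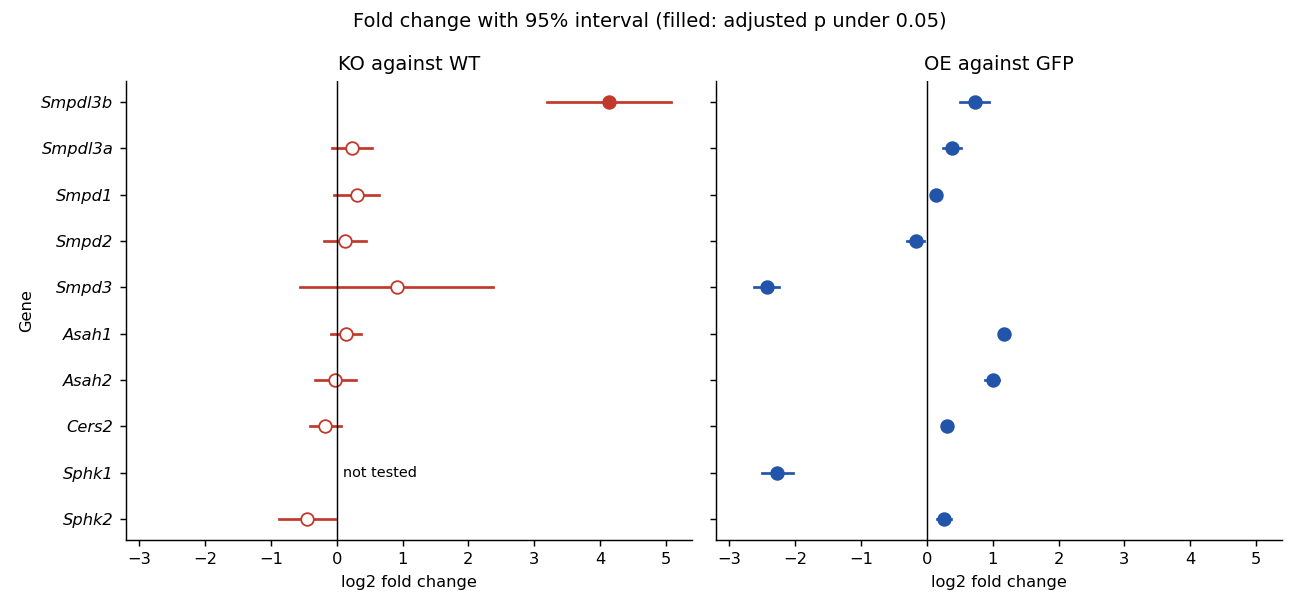
Log2 fold change (horizontal) of each of the 10 genes (vertical) in KO against WT and OE against GFP; points are edgeR estimates from 3 against 3 libraries, lines are 95% intervals, and filled points have an adjusted p under 0.05. In KO the single filled point is Smpdl3b at 4.14 and Sphk1 was not tested, while in OE all 10 are filled and run from -2.43 for Smpd3 to 1.17 for Asah1.

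The OE effect and the KO effect were set against each other in 1 fit of all 12 libraries, as (OE against GFP) minus (KO against WT), in log2 units. That fit uses 1 estimate of spread per gene for both experiments, although their spread was 20.4% and 4.04%. Its SE for Smpdl3b, 0.38, was below the 0.40 of KO against WT alone, so its SE and p values can be too small. The 2 effects differed for 6 of the 10 members, where 54.1% of all genes tested did. For Smpdl3b the difference was -3.40 ± 0.38 (adjusted p = 1.49e-05, edgeR), so the rise in KO was the larger of its 2 rises. For Smpd3 it was -3.30 ± 0.58. For Asah1, Asah2, Sphk2 and Cers2 it was 1.05 ± 0.10, 1.04 ± 0.15, 0.74 ± 0.20 and 0.51 ± 0.09. For Smpdl3a, Smpd1 and Smpd2 the difference was 0.17 ± 0.16, -0.14 ± 0.15 and -0.28 ± 0.15 and was not called. On log2(TPM + 1) in limma 8 members were called, where 8549 of all 13226 genes tested were. Smpdl3a (0.45, adjusted p = 0.0259, limma) and Sphk1 (-1.85, adjusted p = 3.55e-06, limma) were added there. Without KO2 there were 7, with Smpd2 added (-0.37, adjusted p = 0.0421, edgeR), where 8440 of 15791 genes were called. For Sphk1 the KO effect rests on 1 count in each group, and the difference of -2.32 ± 1.77 has a 95% interval from -6.20 to 1.56.

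Per gene length, Cers2 was the highest of the 10 members in every group, at 213.5 ± 2.46 TPM in WT, 178.6 ± 12.7 in KO, 140.4 ± 4.32 in GFP and 207.6 ± 7.83 in OE. In WT, Smpd1 (31.3 ± 5.55 TPM) and Smpd2 (30.1 ± 2.93) came next and their ranges overlapped, and then Sphk2, Smpdl3a, Asah1 and Asah2 followed with no overlap between neighbours. Smpd3 (0.42 ± 0.24 TPM) and Smpdl3b overlapped near the foot, above Sphk1 at 0 to 0.04. In KO the order changed at Smpdl3b, which stood above Smpd3 with no overlap. It also changed at Smpdl3a, whose mean (17.85 TPM) stood above that of Sphk2 (14.08). In KO, Smpd1 and Smpd2 overlapped, as did Smpdl3a with Sphk2 and Sphk2 with Asah1.

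In GFP, Asah1 was second at 62.1 ± 2.20 TPM, above Smpd1 at 56.0 ± 0.22. Sphk1 at 24.03 ± 4.18 TPM, Smpdl3a at 20.3 ± 0.36 and Sphk2 at 20.3 ± 0.45 were neighbours whose ranges overlapped, Smpd3 followed at 15.1 ± 1.49, and Smpdl3b was lowest at 4.97 ± 0.31. In OE, Asah1 reached 166.7 ± 5.87 TPM, still below Cers2. Smpdl3a, Smpd2 and Sphk2 overlapped at 32.8 ± 2.18, 30.7 ± 1.35 and 29.6 ± 1.73 TPM, and Sphk1 and Smpd3 were lowest at 5.91 ± 0.50 and 4.03 ± 0.54.

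Shares within a library do not depend on how libraries are scaled against each other. Sphk1 made up 0%, 0% and 0.231% of the TPM of both sphingosine kinases in WT and 0.327%, 0% and 0% in KO. It made up 48.5%, 56.6% and 56.9% in GFP and 16.1%, 16.6% and 17.1% in OE. Thus Sphk2 was nearly the whole in WT and KO, both kinases were present in GFP, and Sphk1 was the minor one in OE.

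Smpd3 made up 14.5%, 16.8% and 14.3% of the TPM of Smpd1, Smpd2 and Smpd3 in GFP and 3.36%, 4.09% and 3.35% in OE, and 0.228% to 1.5% over WT and KO. Smpd1 made up 55.8% to 57% of the same sum in GFP and 67.8% to 70.2% in OE, against 47.0% to 53.1% in WT and 51.8% to 59.4% in KO. Smpdl3b made up 2.56%, 0.927% and 0.799% of the sum of Smpdl3a and Smpdl3b in WT and 19.1%, 15.4% and 15.7% in KO. It made up 18.9% to 20.3% in GFP and 22.3% to 25.1% in OE.

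Asah1 was the main ceramidase of the pair in all groups, at 69.1 ± 3.28% of the TPM of Asah1 and Asah2 in WT, 69.6 ± 0.26% in KO, 84.7 ± 1.97% in GFP and 87.4 ± 0.79% in OE. Its share overlapped between OE and GFP (exact permutation test, two-sided, p = 0.2), while both genes rose about alike. For the shares of Sphk1, Smpd3, Smpd1 and Smpdl3b in OE against GFP, and of Smpdl3b in KO against WT, the groups did not overlap and the exact permutation test gave p = 0.1, the smallest that 3 against 3 libraries allow.

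**Figure D3:**
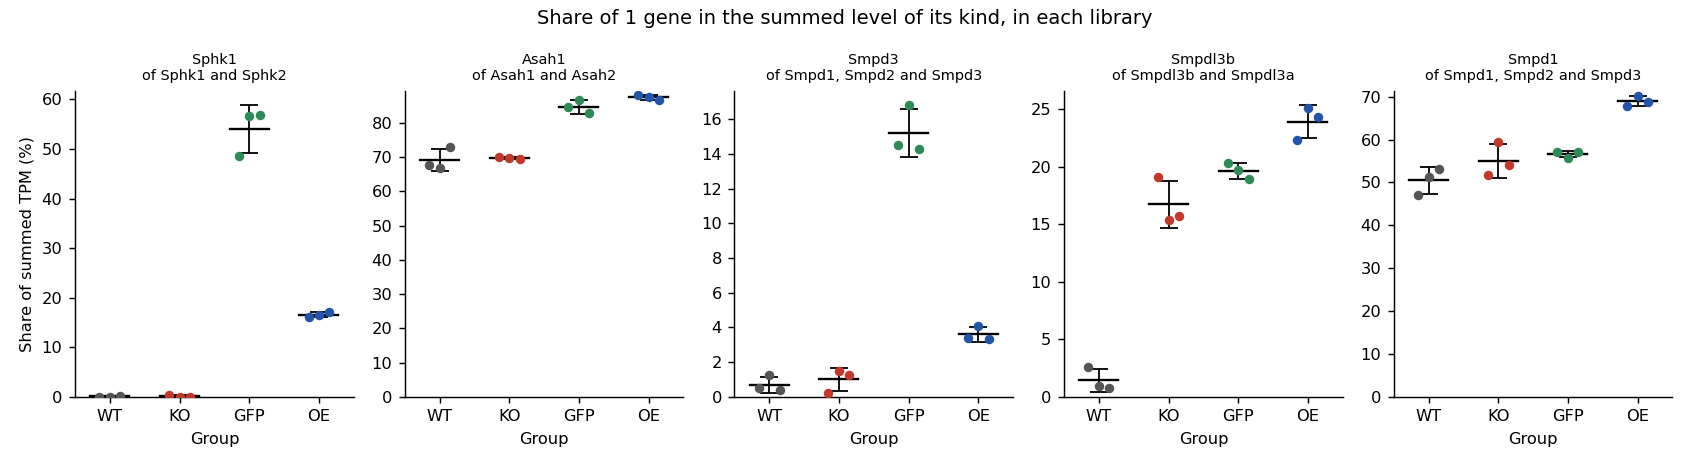
Share in percent (vertical axes, from 0, each panel with its own range) of 1 gene in the summed TPM of the genes named above each panel, by group (horizontal); points are libraries, long bars means and error bars SD of 3 libraries. Sphk1 stood at 48.5% to 56.9% of both kinases in GFP and at 16.1% to 17.1% in OE, and Smpdl3b at 0.799% to 2.56% of its pair in WT and 15.4% to 19.1% in KO.

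GFP and WT are controls of separate experiments, so virus, culture and mouse line cannot be told apart between them, and their levels are given without a test. In TPM, 7 members were higher in GFP than in WT with no overlap (74.5% of all genes were) and 1, Cers2, was lower (12.3% of all genes were), while Smpd2 and Sphk2 overlapped. The median log2 ratio over all genes was 1.51 in TPM and 0.09 in CPM scaled over all 12 libraries. On that CPM scale 4 members were higher in GFP (Smpdl3b, Smpd3, Asah1 and Sphk1) and 6 lower, with no overlap. The share of all genes without overlap was not counted on that scale, so these counts set no member apart from other genes. Smpdl3a, Smpd1 and Asah2 changed direction with the scale. Mean Smpd3 was 35.9 times the WT value in TPM and 12.4 times in CPM, mean Smpdl3b 23.7 and 8.82 times, and mean Asah1 5.63 and 1.93 times. Sphk1 went from 0 or 1 count in WT to 378, 519 and 411 counts in GFP.

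**Figure D4:**
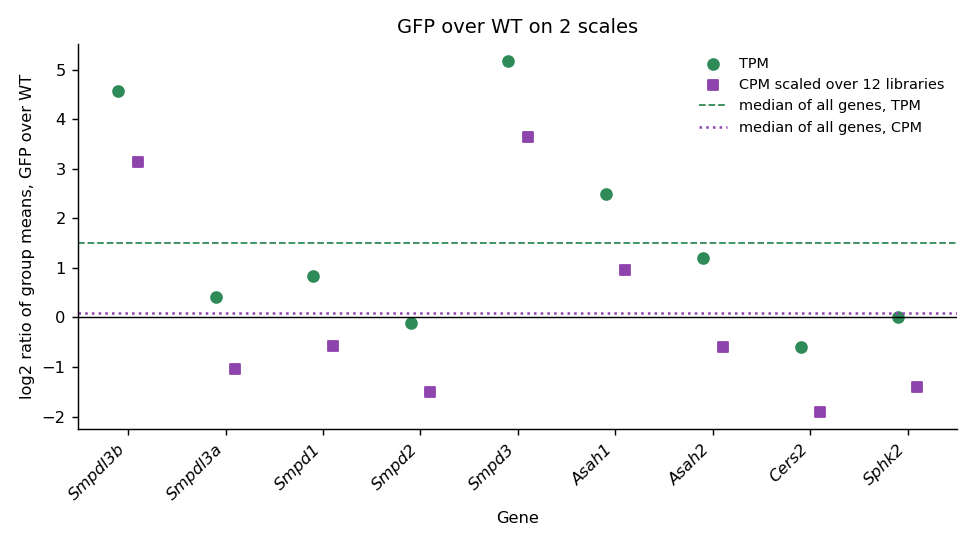
Log2 ratio of the GFP mean to the WT mean (vertical) for 9 of the genes (horizontal; Sphk1 left out as WT held 1 count), in TPM (circles) and in CPM scaled over 12 libraries (squares), with the median of all genes on each scale (dashed line 1.51, dotted line 0.09). Smpdl3b, Smpd3 and Asah1 lie above the line of their scale in both, and Cers2 is below 0 in both.

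Around these enzymes, 63 other sphingolipid genes in 5 lists were measured. In KO against WT, 44 were tested, 1 rose and none fell, and 12 were at an unadjusted p under 0.05. Over all genes tested 0.692% were called higher and 1.02% lower. The list gene that rose was B4galt5, which makes lactosylceramide, at 31.96, 38.03 and 46.68 CPM in WT and 73.11, 89.92 and 70.45 in KO (log2 fold change 1.00 ± 0.17, adjusted p = 0.0366, edgeR). Every KO library lay above every WT library. The call was lost when any WT library, KO1 or KO2 was left out, with adjusted p from 0.0595 to 0.155, and held without KO3.

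In OE against GFP, 55 of the 63 were tested, 30 rose, 20 fell and 5 were not called. Over all genes tested 43.9% were called higher and 42.7% lower, so the counts in this and the following lists say little by themselves. Of 12 genes of ceramide synthesis de novo, 10 rose and 2 fell, with a median log2 fold change of 1.2. Sptlc2, a subunit of serine palmitoyltransferase, the entry enzyme, rose from 126.0, 132.1 and 129.1 CPM to 440.8, 433.4 and 418.9 (log2 fold change 1.74 ± 0.03). Degs1, the desaturase that completes ceramide, rose by a log2 fold change of 1.60 ± 0.03. Of the ORMDL proteins, which restrain the entry enzyme, Ormdl1 rose (1.22 ± 0.04, log2) and Ormdl3 fell (-1.04 ± 0.03). On the log2(TPM + 1) scale 10 of the 12 rose and 1 fell.

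Of 6 genes of sphingomyelin synthesis and ceramide transfer, 3 rose and 2 fell. Sgms1, the sphingomyelin synthase of the Golgi, rose from 28.27, 29.84 and 27.99 CPM to 211.5, 212.0 and 204.0 (log2 fold change 2.86 ± 0.04), while Sgms2, the synthase of the plasma membrane, fell (-0.55 ± 0.04). Col4a3bp, the ceramide transfer protein, rose (1.59 ± 0.03), as did Samd8 (0.75 ± 0.04). On log2(TPM + 1), 5 of the 6 rose and none fell, so the fall of Sgms2 holds on the CPM scale and not on that one. Among 5 tested sphingomyelinases and ceramidases outside the 10 members, Acer3, an alkaline ceramidase, rose (2.02 ± 0.05, log2), Naaa rose (1.43 ± 0.08) and Smpd4 fell slightly (-0.25 ± 0.04). On log2(TPM + 1), 2 of these 5 rose and none fell, so the fall of Smpd4 was not called on that scale.

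Of 13 genes of sphingosine 1-phosphate breakdown, export, carriage and signalling, 7 rose and 6 fell. The receptor S1pr1 rose from 7.40, 7.14 and 7.70 CPM to 183.1, 174.4 and 185.9 (log2 fold change 4.61 ± 0.05). Sgpp1, a phosphatase of sphingosine 1-phosphate, rose (1.76 ± 0.03, log2). Apom, its plasma carrier, fell from 100.8 to 102.1 CPM in GFP to 24.39 to 28.02 in OE (-1.95 ± 0.05, log2), and Plpp2 fell (-1.39 ± 0.04).

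Of 19 tested glycosphingolipid genes 8 rose and 9 fell, with a median log2 fold change of 0.01. B4galt6 rose (4.25 ± 0.06, log2), as did St3gal5 (1.90 ± 0.04), which makes ganglioside GM3, and Ugcg (1.36 ± 0.04), which makes glucosylceramide. Psap, the precursor of the saposins that assist lysosomal sphingolipid breakdown, fell from 936.4 to 953.6 CPM to 273.3 to 294.9 (-1.72 ± 0.04, log2). Of 20 lysosome genes 6 rose and 13 fell, with a median of -0.66. Ctsd, Scarb2 and Gusb fell (-1.55 ± 0.04, -1.12 ± 0.03 and -1.28 ± 0.03, log2) and Npc1, the lysosomal cholesterol transporter, rose (1.55 ± 0.03). On log2(TPM + 1) 7 rose and 12 fell, with a median of -0.34. In KO no lysosome gene was called in the 6-library edgeR fit (2 were at an unadjusted p under 0.05), while 1 fell in DESeq2, and 1 rose and 1 fell in the edgeR fit of all 12 libraries.

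**Figure D5:**
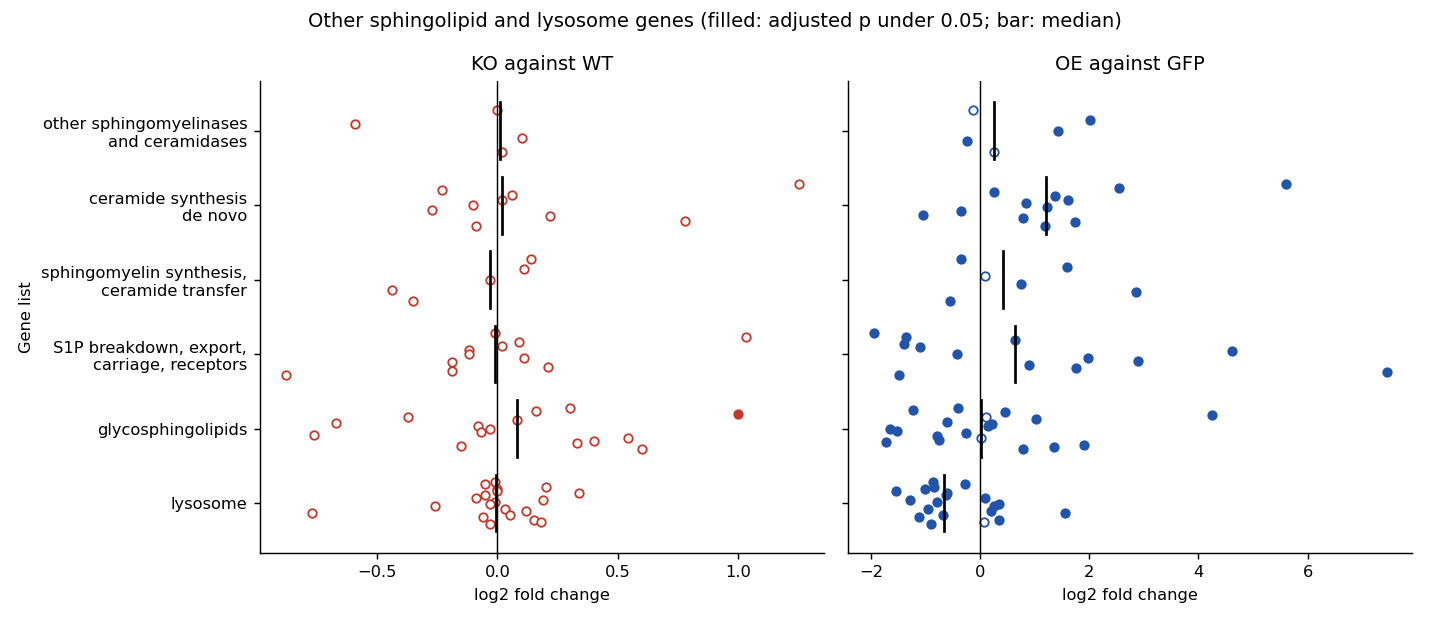
Log2 fold change (horizontal; the panels have different ranges) of the tested genes of 5 other sphingolipid lists and of lysosome genes (vertical) in KO against WT and OE against GFP; each point is 1 gene, filled at an adjusted p under 0.05, and bars are medians. In KO the single filled point is B4galt5 at 1.00, and in OE the median was 1.2 for ceramide synthesis de novo and -0.66 for lysosome genes.

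The genes most like Smpdl3b over all 12 libraries, by Pearson correlation of log2(CPM + 0.5), were Tmprss2 (r = 0.90), Slc35f2 (0.897), F11r (0.892), Sirpa (0.875) and Pak6 (0.866), of 12602 genes. Their mean TPM was lowest in WT in each case, for example 1.54 in WT, 4.52 in KO, 10.2 in GFP and 11.3 in OE for Tmprss2. Within the 6 WT and KO libraries they were Cyp2d12 (0.995), Dsg1c (0.987), Tcirg1 (0.985), Lrtm2 (0.985) and Ifi27l2b (0.984). None of these 5 is among the first 5, and Cyp2d12 was at 17.5 TPM in KO and 0.11 in OE. These are descriptions over libraries that share group, depth and culture.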

How the data were processed

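Samples were grouped by title (WT, KO, GFP and OE, 3 primary hepatocyte libraries each). RNA from a spin column went into a stranded poly(A) library kit. The authors' tools, per the labels, were Trimmomatic 0.36, STAR 2.5.1 and RSEM 1.2.22 with build mm10, and Picard 1.84 and DESeq2 were named without a role. The deposited files hold RSEM expected counts, which are not scaled, and TPM, which is scaled by the authors for length and depth. All 55450 identifiers were found in GENCODE M21.

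Expected counts were rounded (4.54% to 6.15% of values per library were not whole). Genes were kept by filterByExpr (minimum count 10, total 15), scaled by TMM and tested with the quasi-likelihood F test of edgeR 4.0.16 in R 4.3.3, KO against WT and OE against GFP on 6 libraries each and their difference on 12, adjusted by Benjamini-Hochberg over every tested gene, with calls at an adjusted p under 0.05. The SE is the log2 fold change over the root of F. Between genes and across experiments, deposited TPM was used. Totals were 20160081 to 23304230 per library, which sets the counting error, and no 2 libraries agreed within sampling noise. Floors take 3 counts for a count of 0. On simulated data with known changes, 54.5% of 2-fold and 92.9% of 4-fold changes were recovered in KO against WT over 11846 genes (7.01% of calls false), and 86.6% and 100% in OE against GFP over 14889 genes (8.04% false). The simulation changed only 200 genes in each comparison. In the real OE against GFP data most genes were called, so these rates do not describe that comparison. Alternatives used DESeq2 1.42.0, limma 3.58.1, other scalings and filters, each library left out in turn and a replicate block.

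Members, gene lists, tests and the naming rule were chosen with earlier results of these data known. By that rule all members are named, and of each other list up to 4 genes with the lowest p in each comparison, with values where called. For Smpdl3b the 5 most correlated genes of at least 1 CPM are named, leaving out predicted and clone-named genes. S1pr1, B4galt5 and other list genes thus follow the rule. Marker genes were named, and the half-sites TTGC and GCAA searched, after values were seen.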

Additional observations from a re-analysis of the deposited data

How the results depend on the processing

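Smpdl3b in KO was called in each alternative that tested it. Under the stricter filter it was not tested and 0 members were called. Genes called in KO against WT, 203 in all, numbered 623 in DESeq2, 1205 in a fit of all 12 libraries, 324 with no filter, 103 in limma with log2(TPM + 0.1), 112 with log2(TPM + 1), 91 when the filter was stricter, and 42 to 396 with 1 library left out (42 without WT1, 52 without WT2, 60 without WT3, 118 without KO1, 91 without KO2, 396 without KO3). The 1 other sphingolipid gene called in KO became 2 in DESeq2, with library totals and with no filter, 10 in the fit of all 12 libraries, 0 in both limma fits and under the stricter filter, and 0 to 2 with 1 library left out. Depth limits Smpdl3b in WT and Sphk1 in WT and KO.

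Estimates near 0 changed sign. For KO against WT, Smpd2 was -0.01 without KO1 (-0.01 to 0.20 with 1 library left out), and Asah2 was 0.12 and 0.11 in limma on log2(TPM + 0.1) and log2(TPM + 1) and -0.12 to 0.08 with 1 library left out, above 0 without KO2 (0.08), WT1 (0.01) or WT2 (0.02). For OE against GFP, Smpd2 was 0.14 and 0.13 in the same limma fits, and its call was lost in DESeq2, with library totals, in the fit of all 12 libraries, and without OE2 or OE3 (adjusted p from 0.0111 to 0.618 over all alternatives). For the difference, Smpd1 was 0.03 with library totals and 0.17 in both limma fits, Smpd2 was 0.13 and 0.12 in limma, and Sphk1 was -4.80 (without WT3) to 0.21 (without KO1) with 1 library left out. The cause was not tested. In OE against GFP the share higher among calls was 63.5% on log2(TPM + 0.1) and 63.4% on log2(TPM + 1) against 50.7%, with a median over all genes of 0.30 and 0.27, and 55.9% with library totals (median 0.145). In the difference it was 66.6% and 66.7% in limma against 47.9%.

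Same-numbered samples did not deviate together (correlations of 0.018, -0.044 and -0.361 in WT and KO and -0.04, 0.045 and -0.07 in GFP and OE). With 3 libraries in each group, these values cannot exclude that same-numbered samples were paired. With the replicate block, 87 genes were called in KO against WT and 12816 in OE against GFP, 0 other sphingolipid genes were called in KO, and Smpdl3b was still called there (adjusted p = 0.017).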
